A study of Mus musculus with 6 samples.

Results

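Conventional dendritic cells of type 2 (type 2 cDC) were examined in pancreatic tumours of 6 mice. A cell was counted as a type 2 cDC by its unique molecular identifiers (UMIs), each of which stands for 1 captured RNA molecule. The rule asked for at least 3 UMIs summed over Cd209a, Flt3, Zbtb46, Mgl2 and H2-DMb2, of which at least 1 from Cd209a or Flt3, and for at least 10 UMIs of the class II genes H2-Aa, H2-Ab1 and Cd74. It allowed at most 1 UMI of the C1q genes of macrophages (C1qa, C1qb, C1qc) and at most 2 of the maturation genes Ccr7, Fscn1 and Ccl22. It allowed none of Xcr1 and Clec9a (type 1 cDC), Siglech (plasmacytoid dendritic cells), Cd79a (B cells), Cd3e (T cells) or Epcam (epithelium). Of 39928 cells that passed quality control, 53 met the rule, 34 from vehicle-treated and 19 from drug-treated mice. Since these counts chose the cells, the genes of the rule are given below as a description, with no test.

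Conventional dendritic cells take up antigen in tissue, cut it into peptides and carry it to lymph nodes, where they show it to T cells. They come from bone marrow precursors that depend on the growth factor receptor Flt3, and they share the transcription factor Zbtb46. Type 1 cells depend on Irf8 and Batf3 and are known for presenting antigen of dead cells to CD8+ T cells, whereas type 2 cells use Irf4, carry the C-type lectins Clec10a, Mgl2 and Cd209a, and are known for presenting antigen on class II molecules to CD4+ T cells.

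All 6 animals were KPC mice, whose alleles include p53LSL.R172H/+ and Pdx1-Cretg/+. Cre recombinase under the promoter of the pancreatic gene Pdx1 switches on mutant p53 in the pancreas, and tumours arise in an immunocompetent host. The mice entered the study with tumours of 4 to 7 mm on ultrasound. The vehicle group (n = 3) received corn oil and water. The treated group (n = 3) received trametinib, an inhibitor of the kinase MEK, at 1 mg/kg and hydroxychloroquine, an inhibitor of lysosomal acidification and so of autophagy, at 40 mg/kg, both by mouth. Tumours were taken 24 h later and dissociated enzymatically, and 1 droplet-based 10x Genomics library was made per mouse. The ages of the mice are not in the labels. The design asks how combined inhibition of MEK and autophagy acts on the tumour and, here, on its type 2 cDC.

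The 6 libraries held 22996012 to 126645602 UMIs and 2186 to 11419 cells that passed quality control. Median UMIs per cell were 3222 to 4662 in vehicle libraries and 8482 to 11335 in treated libraries. In each library, 3.86% to 19.8% of barcodes exceeded the limit of 20% mitochondrial UMIs. The barcodes of vehicle 1 stood apart from the rest, as 26.1% to 26.3% of the leading 7 bases of 1 library's barcodes were found in the other when vehicle 1 was in the pair, against 98.6% to 100% in pairs of the other 5 libraries. Pairs with vehicle 1 shared 0 or 1 whole barcodes and the other pairs 7 to 22. No barcode of a type 2 cDC was found in another library.

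Vehicle 1, 2 and 3 held 9, 19 and 6 type 2 cDC, and treated 1, 2 and 3 held 3, 8 and 8. A single type 2 cDC had between 1638 and 22740 UMIs, with a median of 7426. Median UMIs were 5341, 6123 and 3486 in the vehicle mice and 8579, 11004 and 8469 in the treated mice, so that the groups did not overlap in depth. Of 1531 cells with 3 or more UMIs of the 5 marker genes, 128 had Cd209a or Flt3 and 123 of those also had 10 class II UMIs. The other criteria then left 53. Epcam alone removed 17 cells, C1q alone 10, the maturation genes alone 10, Cd79a alone 8, Xcr1 with Clec9a 5, Siglech 2 and Cd3e 1. At the border of the rule, 9 members had exactly 3 UMIs of the marker genes, with a median of 6046 UMIs per cell. Another 15 cells met every other criterion with 2 marker UMIs, with a median of 4591 UMIs per cell.

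Flt3 (mm10 chr5:147330741-147400489, minus strand), the receptor for the dendritic cell growth factor Flt3 ligand, admitted most of the cells, with 1 or more UMIs in 42 of 53. Flt3 stood at 144, 202 and 298 CPM (counts per 1000000 UMIs) of the type 2 cDC of vehicle 1, 2 and 3 and at 286, 108 and 185 CPM in treated 1, 2 and 3. Cd209a (mm10 chr8:3743397-3748984, minus strand), a lectin of the DC-SIGN family, had UMIs in 15 cells, and was at 226, 36.2 and 0 CPM in the vehicle mice and at 52.0, 204 and 0 CPM in the treated mice. Flt3 was therefore present in every mouse, whereas Cd209a was not detected in the type 2 cDC of vehicle 3 and treated 3, and 12 of its 35 UMIs came from 1 cell. By the gene that admitted them, 38 cells had Flt3 without Cd209a, 11 had Cd209a without Flt3 and 4 had both.

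Mgl2 (mm10 chr11:70130329-70137550), a galactose-binding lectin, was also uneven. It was detected in 27 of 53 cells, with up to 72 UMIs in 1 cell. Its levels were 205, 557 and 1290 CPM in vehicle mice and 623, 1774 and 490 CPM in treated mice. H2-DMb2 (mm10 chr17:34143307-34151555), a subunit of the H2-DM peptide exchanger, was detected in 41 cells, at 636, 195 and 298 CPM against 156, 252 and 424 CPM. Zbtb46 gave only 5 UMIs in 4 cells. The groups overlapped in all 5 marker genes. H2-DMb2 and Cd209a have close relatives in the genome (H2-DMb1, other Cd209 genes), and reads that fit 2 copies cannot be assigned from the deposited counts. After thinning to 1500 UMIs per cell, 22.6% of type 2 cDC and 0.273% of tumour epithelial cells had a Flt3 UMI, 13.2% and 0% a Cd209a UMI, and 37.7% and 0.137% an H2-DMb2 UMI. The unthinned shares in type 2 cDC were 79.2%, 28.3% and 77.4%. Tumour cells, which should lack these genes, had median depths of 14901 to 32495 UMIs per library. Since the rule chose type 2 cDC by these genes, their higher shares there follow from the rule and do not test the label.

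The label was checked with 20 genes of type 2 cDC and 12 of type 1 cDC that the rule did not use. Of 53 cells, 46 had more UMIs of the first list, with a median of 25.5 UMIs of type 2 genes (6 to 141) and 3 of type 1 genes (0 to 18). The other 7 cells had the reverse, with a median of 4 UMIs of type 2 genes (1 to 6) and 33 of type 1 genes (5 to 60). These 7 also had 2 to 17 UMIs of Irf8, the transcription factor of type 1 cells, a median of 197 UMIs of Cst3 against 21.5 in the 46, and no UMI of Clec10a. They came from vehicle 1 (1 cell), vehicle 2 (4), treated 1 (1) and treated 2 (1), and all 7 had entered through Flt3 without Cd209a. The label therefore went against the genes of 7 cells. The lists set type 2 only against type 1 cDC, so they do not show that the other 46 are free of other cell types. Of those 46, 9 held more UMIs of monocyte than of type 2 genes, as described below. The counts of genes called in the treatment and class comparisons were also made without the 7 cells, which left 2 cells in treated 1.

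**Figure D1:**
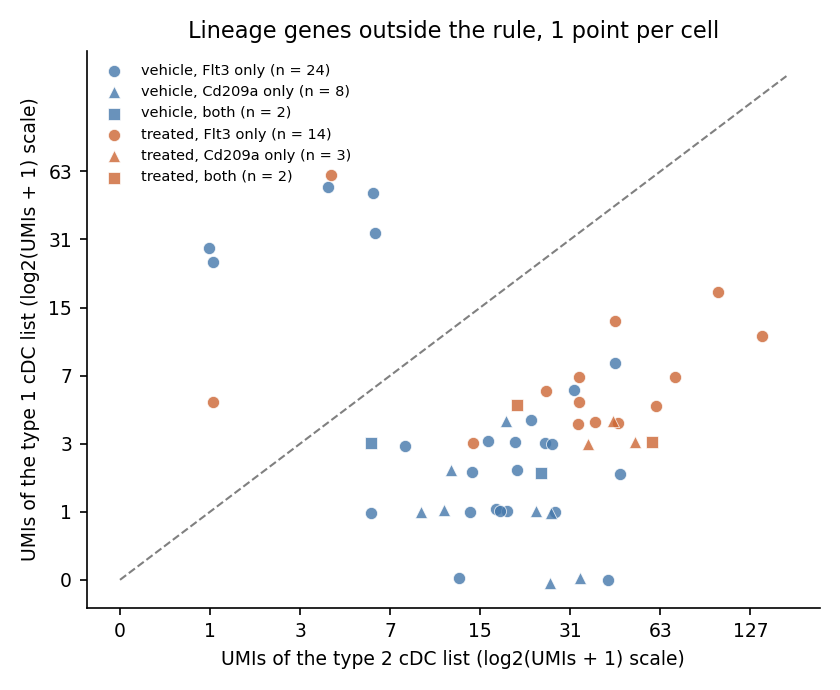
UMIs of type 2 cDC genes (horizontal axis) and of type 1 cDC genes (vertical axis), outside the rule, in each of the 53 cells. Each point is 1 cell, marked by group and by the gene that admitted it, and the 7 cells above the diagonal have more type 1 than type 2 UMIs.

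Genes of other cell types were also found, and 2 cells held over 100 UMIs of such a list. A cell of vehicle 2 with 22740 UMIs held 122 UMIs of endothelial genes, including 23 of the 26 Pecam1 UMIs and 26 of the 27 UMIs of the proliferation gene Mki67 in that mouse's type 2 cDC. A cell of treated 3 held 188 UMIs of monocyte genes, including 101 of that mouse's 109 UMIs of the lysozyme gene Lyz2. Without it, Lyz2 in treated 3 was 119 CPM in place of 1443 CPM. Monocyte genes were not limited to that cell: 9 of the 46 cells with more type 2 than type 1 UMIs held more UMIs of monocyte than of type 2 genes, and 1 cell of treated 2 held 96 against 53, with 48 of that mouse's 72 Lyz2 UMIs. Of these 9 cells, 6 were in vehicle 2 and 1 each in vehicle 3, treated 2 and treated 3. Summed monocyte genes (15 genes) were 1169 to 2162 CPM in vehicle and 1689 to 3653 CPM in treated mice. Summed macrophage genes were 513 to 1191 and 597 to 926 CPM, and fibroblast genes 61.5 to 1135 and 24.0 to 182 CPM. Neutrophil genes were higher in every vehicle mouse (43.4 to 2084 CPM) than in any treated mouse (0 to 39.7 CPM). The gap between 39.7 and 43.4 CPM is narrow and rests on few UMIs, as the type 2 cDC of a mouse summed to 20149 to 138290 UMIs. Of the 10 neutrophil genes, 7 had UMIs and Retnlg, Cxcr1 and Ly6g had none. No UMI was found for 5 of 9 B cell genes and 6 of 11 T and NK cell genes, or for 2 of 16 macrophage genes (Gpnmb and Folr2). Whether RNA or cells of those types take part in the results below was not tested, except where a value without a cell is given. The pan-leukocyte gene Ptprc (CD45) was detected in 44 of 53 cells, but in only 3 of 9 of vehicle 1.

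Antigen presentation by class II molecules is what type 2 cDC are best known for, and the rule itself required UMIs of 3 genes of this group. Cd74, the invariant chain that guides class II molecules to the endosome, stood at 22175, 18794 and 26602 CPM in vehicle 1, 2 and 3 and at 17457, 30662 and 19654 CPM in treated 1, 2 and 3. H2-Aa and H2-Ab1, the 2 chains of the I-A molecule, were at 4468 to 11136 and 6624 to 11555 CPM. H2-Eb1, the beta chain of the other class II molecule, was not part of the rule and was detected in 52 of 53 cells. It was at 9826, 7723 and 7246 CPM in vehicle mice and at 4131, 11375 and 8986 CPM in treated mice, and the groups overlapped, with treated 1 lowest. The peptide exchanger subunits H2-DMa and H2-DMb1 were at 701 to 1378 and 225 to 851 CPM, and H2-Oa, a subunit of the H2-O molecule that restrains H2-DM, was at 116 to 546 CPM. The class II transactivator Ciita, which switches on the whole group, was at 264 to 695 CPM and was detected in 47 cells.

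The promoters of these genes are known for a shared set of boxes, of which the Y box holds a CCAAT core bound by the factor NF-Y. Of 16 class II pathway genes searched, 12 had a promoter in the RefSeq table (GRCm38.p6). The 6 letters GATTGG, or CCAATC on the other strand, were searched in the 150 bases before the start of transcription. They were found in 7 of 9 windows of H2 class II genes (8 genes, 2 windows for 1 of them) and in 10.9% of all 32851 windows of the same length. H2-DMa had them in neither of its 2 windows. Of the other pathway genes with a window, Rfx5 held them, and Ctss, Ifi30 and Lgmn did not. Such a match is a description and no binding was measured. The sequences below are the windows of H2-Aa, a gene of the rule shown for reference, and of H2-Eb1, H2-DMb1 and H2-Oa, whose values in the cell classes are compared further on. They are written on the coding strand, with the core in capitals. They lie at chr17:34287824-34287973 (H2-Aa, minus strand), chr17:34305717-34305866 (H2-Eb1, plus), chr17:34153041-34153190 (H2-DMb1, plus) and chr17:34092229-34092378 (H2-Oa, plus).
H2-Aa: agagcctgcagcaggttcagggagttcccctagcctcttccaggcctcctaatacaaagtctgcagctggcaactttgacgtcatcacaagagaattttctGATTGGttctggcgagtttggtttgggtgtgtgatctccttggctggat
H2-Eb1: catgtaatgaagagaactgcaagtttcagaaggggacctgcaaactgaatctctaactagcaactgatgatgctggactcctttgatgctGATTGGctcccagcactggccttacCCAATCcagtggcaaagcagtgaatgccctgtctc
H2-DMb1: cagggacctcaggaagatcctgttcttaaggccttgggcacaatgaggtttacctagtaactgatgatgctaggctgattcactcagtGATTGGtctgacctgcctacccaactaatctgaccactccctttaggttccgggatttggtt
H2-Oa: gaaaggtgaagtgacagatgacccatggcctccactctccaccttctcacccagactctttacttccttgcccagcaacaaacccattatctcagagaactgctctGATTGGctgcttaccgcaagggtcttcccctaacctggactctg

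The core started 49 bases before the start site in H2-Aa, 62 in H2-DMb1 and 44 in H2-Oa, and H2-Eb1 held it at 60 and 35 bases. In the comparison with macrophages further on, H2-Oa passed, whereas H2-Eb1 and H2-DMb1 did not. Against the stricter class of mature dendritic cells defined below, H2-Oa and H2-DMb1 passed and H2-Eb1 did not. Not passing does not show that a gene is equal in 2 classes. CPM are not scaled by gene length, so levels are compared within a gene and not between genes.

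Among genes of type 2 cDC outside the rule, Clec10a (mm10 chr11:70156197-70170834), a lectin that binds N-acetylgalactosamine, was detected in 32 of 53 cells. It was at 431, 123 and 397 CPM in vehicle mice and at 364, 563 and 794 CPM in treated mice. Sirpa, the receptor that reads the "do not eat me" signal CD47, was found in 31 cells at 61.5 to 212 CPM, and Irf4 in 15 cells at 14.5 to 149 CPM. The lymphotoxin gene Ltb was found in 27 cells at 36.0 to 447 CPM. Ccl17, a chemokine that draws Ccr4-bearing T cells, was found in 14 cells and ranged widely between mice, from 0 CPM in treated 1 to 1707 CPM in treated 3. Plet1 was in 12 cells, Cd7 in 10 and Esam in only 2. The groups overlapped in each of these genes.

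Inflammatory and costimulatory genes ran from some detected in most cells to some not detected. Il1b, the gene of interleukin-1 beta, was detected in 43 of 53 cells and differed widely between mice, at 164, 1678 and 2829 CPM in vehicle and 52.0, 1414 and 1509 CPM in treated animals. Vehicle 1 and treated 1 were both low. The costimulatory ligand Cd86 was found in 23 cells (13.2 to 174 CPM), Cd80 in 12, Cd40 in 7, and Cd274, which encodes PD-L1, in 13. Il12b, a subunit of interleukin-12, and the RNA sensor Tlr7 had no UMI among 404666 UMIs of type 2 cDC, and Il23a had 1. Receptors for GM-CSF, a survival factor of these cells, were present in most cells, with Csf2ra in 36 and Csf2rb in 35. Ccr2, the receptor by which precursors leave the bone marrow, was found in 32 cells, and the gut-homing integrin gene Itgb7 in 39 at 99.3 to 240 CPM. Mki67 was present in 7 cells.

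Cells admitted by Cd209a alone were compared with those admitted by Flt3 alone in the 3 mice with at least 3 of each, vehicle 1, vehicle 2 and treated 2. No gene of 473 passed an adjusted p of 0.05 in edgeR's quasi-likelihood test with mouse as a term (0%), 34 had p below 0.05 before adjustment, and 0 genes passed in DESeq2. The lowest adjusted p belonged to Id2, a transcriptional regulator needed by type 1 cells. It was at 166, 74.6 and 26.1 CPM in the Cd209a cells of vehicle 1, vehicle 2 and treated 2 and at 1083, 224 and 407 CPM in the Flt3 cells, lower in all 3 mice (log2 -2.79 ± 0.65 SE, adjusted p = 0.113). Irf8 was at 0, 74.6 and 0 CPM against 421, 507 and 109 CPM (log2 -4.07 ± 1.09 SE, adjusted p = 0.150). Il1b was at 124, 896 and 599 CPM against 241, 1819 and 2118 CPM (log2 -1.48 ± 0.37 SE, adjusted p = 0.133). All 7 cells with more type 1 than type 2 UMIs are in the Flt3 arm. Such cells held 7 Irf8 UMIs in vehicle 1, 52 in vehicle 2 and 2 in treated 2. All other type 2 cDC of the same mice held 0, 11 and 3. The part of the cells with more type 1 UMIs in these differences was not tested. The class II genes outside the rule lay above 0 for 7 of 7 tested (median log2 0.41), against 256 of all 473 genes (median 0.04). Pan-dendritic genes lay below 0 for 7 of 7 (median log2 -0.89) and class I genes for 6 of 6 (median -0.32). The count of calls depended on single mice, with 10 genes without vehicle 1 and 2 without treated 2.

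The share of type 2 cDC among all cells did not separate the groups. It was 0.412% in vehicle 1 (95% exact binomial interval 0.188 to 0.780), 0.182% in vehicle 2 (0.110 to 0.285) and 0.0525% in vehicle 3 (0.0193 to 0.114). In treated 1, 2 and 3 it was 0.0730% (0.0151 to 0.213), 0.148% (0.0638 to 0.291) and 0.125% (0.0541 to 0.247). These intervals cover counting error only. The treated mice lay within the range of the vehicle mice. The mean was 0.216 ± 0.182% (SD, n = 3) in vehicle and 0.115 ± 0.0384% (SD, n = 3) in treated mice, a difference of -0.100 percentage points (two-sided exact permutation test over mice, p = 0.5, where 0.1 is the smallest possible). Without vehicle 1, the library whose barcodes stood apart, the difference was -0.00212 points (exact p = 1).

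Because the rule counts UMIs and depth differed between groups, every cell with at least 2000 UMIs was thinned to 2000 and the rule applied again. It then found 3 of 1512 cells in vehicle 1, 6 of 6692 in vehicle 2 and 4 of 7237 in vehicle 3, which are 0.198%, 0.0897% and 0.0553%. In treated mice it found 1 of 3259, 2 of 3887 and 0 of 5495 cells, which are 0.0307%, 0.0515% and 0%, the last with an upper 95% limit of 0.0671%. All 3 treated mice lay below all 3 vehicle mice at this depth. The mean was 0.114 ± 0.0747% against 0.0274 ± 0.0259% (SD, n = 3 each; difference -0.0871 points, exact permutation p = 0.1, the smallest that 3 against 3 allows). Without vehicle 1 the difference was -0.0451 points (exact permutation p = 0.2, the smallest possible without that mouse). The counts behind it were small, and the groups overlapped at 1000 UMIs (exact p = 0.7) and at 4000 UMIs (exact p = 0.2). The 3 tests of shares and ratios could give no p under 0.05, since 0.1 is the smallest that 3 against 3 allows.

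**Figure D2:**
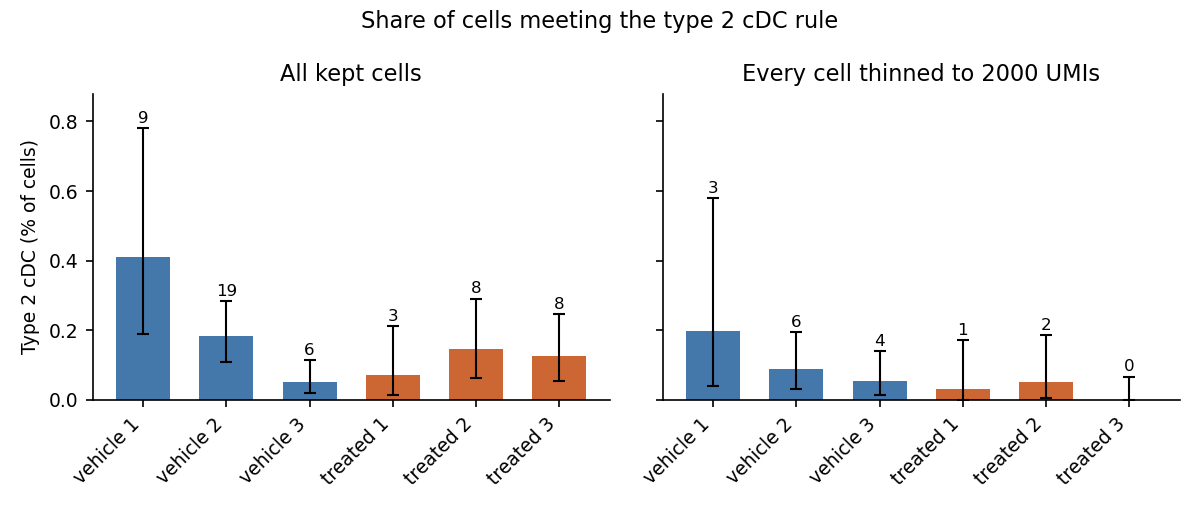
Share of cells that met the type 2 cDC rule in each mouse, at full depth and after thinning to 2000 UMIs per cell. Bars are single mice with 95% exact binomial intervals and the number of cells above them; the treated bars sit within the vehicle range at full depth and below it after thinning.

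Type 1 cDC, defined by at least 2 UMIs of Xcr1 and Clec9a, numbered 14, with 0, 6 and 4 in vehicle 1, 2 and 3 and 0, 0 and 4 in treated 1, 2 and 3. The log2 ratio of type 2 to type 1 numbers, with 0.5 added to each, was 4.25, 1.58 and 0.53 in vehicle and 2.81, 4.09 and 0.92 in treated mice. The ratios overlapped, with a difference of 0.48 (exact permutation p = 0.8). That difference turned to -0.31 without vehicle 3, to -0.26 without treated 2 and to -0.62 after thinning, so no direction is given.

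No gene separated treated from vehicle type 2 cDC after adjustment. Of 798 genes tested on UMIs summed per mouse, edgeR's quasi-likelihood test called 0 at an adjusted p of 0.05 (0%), while 13 had p below 0.05 before adjustment; 0 passed in DESeq2. The self-test on simulated counts of this comparison recovered 11.4% of 2-fold and 64% of 4-fold changes. Changes of the smaller size would therefore mostly be missed with 53 cells. The simulation changed 165 of its 703 genes. With fewer changed genes the adjusted threshold is harder to pass, so these rates may overstate recovery here. In 51 genes (6.39%) the 3 treated mice did not overlap the 3 vehicle mice, and 26 of these were higher in treated mice (3.26% of the genes tested). The genes named next were taken from those 51 by the smallest unadjusted p, and none of them passed the test (adjusted p = 0.971 in edgeR for each). Depth per cell moves with the groups here and its part was not tested.

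Jun (mm10 chr4:95049034-95052222, minus strand), a subunit of the AP-1 transcription factor downstream of MAP kinases, was at 82.1, 571 and 149 CPM in vehicle 1, 2 and 3 and at 857, 647 and 741 CPM in treated 1, 2 and 3. The log2 difference was 1.28 ± 0.53 SE (unadjusted p = 0.0279 in edgeR), and 0.90 without vehicle 1. Sdc4, a heparan sulphate proteoglycan, was at 0, 116 and 49.6 CPM against 182, 204 and 331 CPM (log2 1.74 ± 0.67 SE). Tln1, which links integrins to actin, was at 308, 304 and 298 CPM against 623, 539 and 437 CPM (log2 0.75 ± 0.41 SE), a narrow vehicle group below all treated mice; without the 7 cells with type 1 genes its difference was 0.37. Clk1, Jak2, Btg2, Lamtor1, Rock1 and Fem1c were also higher in every treated mouse, with log2 differences of 0.70 to 1.35. Btg2 differed by 0.70, and by 0.45 without the 7 cells with type 1 genes. AY036118, a transcript that overlaps ribosomal RNA sequence, was at 61.5, 239 and 546 CPM against 1429, 863 and 794 CPM (log2 2.03 ± 0.53 SE).

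Clec4n, which encodes the fungal receptor dectin-2, was at 349, 419 and 1142 CPM in vehicle mice and at 52.0, 240 and 331 CPM in treated mice (log2 -1.41 ± 0.57 SE, unadjusted p = 0.0257 in edgeR). Vehicle 3 was far above the rest, and treated 3 lay just below vehicle 1. The mitochondrial copper chaperone Cox17 was at 308, 275 and 347 CPM against 104, 180 and 159 CPM (log2 -1.02 ± 0.47 SE). Fth1, the heavy chain of the iron store ferritin, was at 6995, 5423 and 8090 CPM against 4001, 4903 and 4553 CPM (log2 -0.64 ± 0.36 SE). Cox6c, a subunit of the terminal respiratory complex, was at 821, 477 and 546 CPM against 364, 396 and 344 CPM. Arpc4, Timm10b, Tma7, Ptpn6, Orai1 and Vamp8 were lower in every treated mouse as well, with log2 differences of -0.90 to -0.80. Without vehicle 1, Cox6c differed by -0.35 in place of -0.80 and Tma7 by -0.44 in place of -0.83, and without the 7 cells with type 1 genes Orai1 differed by -0.31 in place of -0.85.

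**Figure D3:**
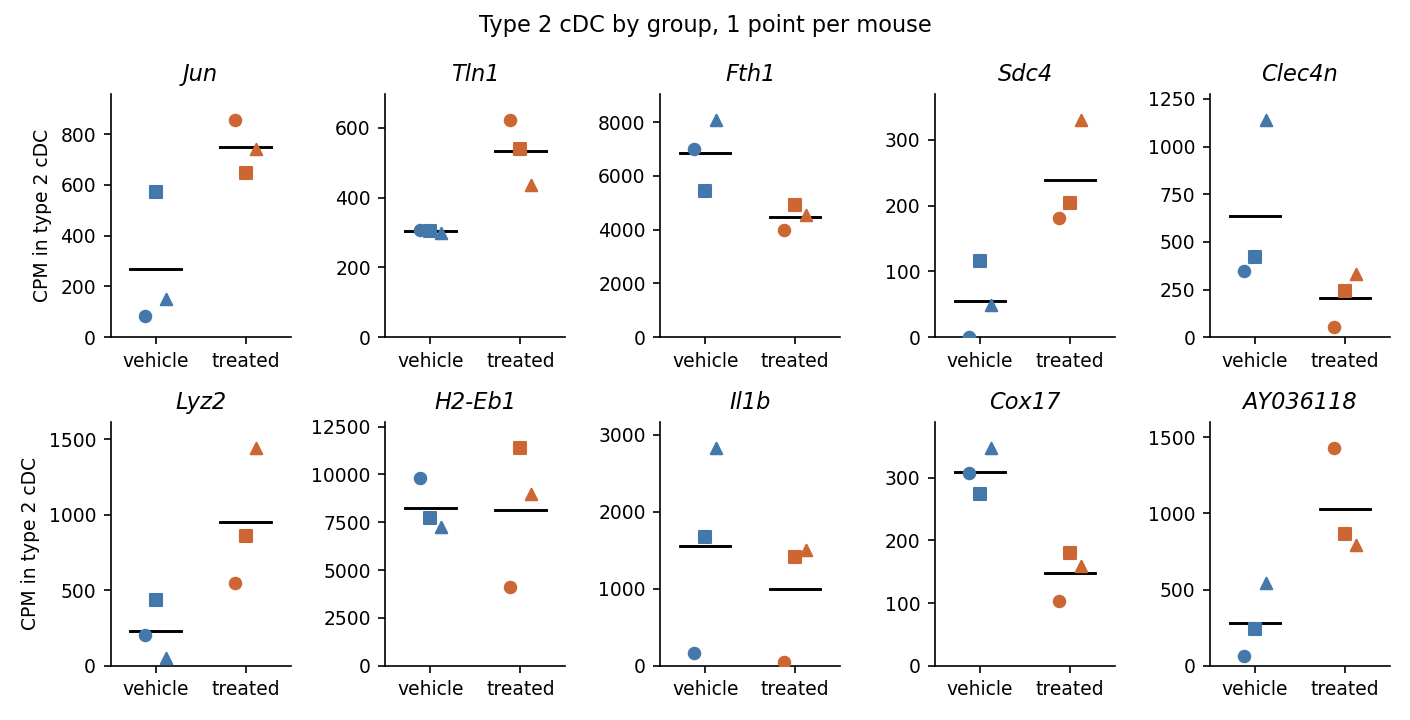
CPM of 10 genes in type 2 cDC of the 3 vehicle and 3 treated mice, 1 point per mouse, with the group mean as a line; each vertical axis is linear and starts at 0. The panels show genes without overlap between the groups (such as Jun, Tln1 and Fth1) beside overlapping ones, and no gene passed the adjusted test.

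Gene groups relevant to the 2 drugs were read against all 798 genes, of which 370 lay above 0 and 428 below (median log2 -0.05). Of 28 output genes of the MAP kinase pathway, which MEK inhibition is known to lower, 7 were abundant enough to test, all 7 lay above 0 (median log2 0.75) and none passed. Beside Jun, these included Junb at 451, 817 and 893 against 831, 1414 and 1403 CPM (log2 0.77 ± 0.38 SE) and Fos at 123, 694 and 99.3 against 208, 863 and 1019 CPM (log2 1.01 ± 0.66 SE). Without vehicle 1, where 12 genes of the list could be tested, 8 lay above and 4 below 0 (median 0.28), and Jun (0.90), Fos (0.69) and Junb (0.64) stayed above 0. The summed list overlapped between groups, at 1354 to 5199 CPM in vehicle and 3741 to 6425 CPM in treated mice. Genes of this list also respond to tissue dissociation, and the heat shock and dissociation genes lay at 3733 to 8894 CPM in vehicle and 6884 to 8814 CPM in treated mice.

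Lysosome genes, which bear on hydroxychloroquine, gave 8 of 12 tested above 0 (median log2 0.15), and 3 autophagy genes gave 1 above and 2 below. None passed. Psap, a precursor of lysosomal lipid-binding proteins, was at 944, 1215 and 596 CPM against 1195, 1067 and 1429 CPM (log2 0.33 ± 0.39 SE, and 0.70 without the 7 cells with type 1 genes). Of the oxidative phosphorylation genes, 20 of 22 tested lay below 0 and 2 above (median log2 -0.30), and none passed; without vehicle 1 they were 20 below and 3 above (median -0.17). Summed over all 30 genes of that list, the vehicle mice were at 11467, 9950 and 10869 CPM and the treated mice at 9768, 8391 and 8100 CPM, without overlap. Summed cholesterol synthesis genes were at 615, 926 and 844 CPM against 572, 444 and 529 CPM, also without overlap. Of 34 summed lists, 4 did not overlap between groups, where 6.39% of single genes did not, and no test was made of them. The others were the neutrophil genes above and the chemokine and adhesion receptors, which were higher in treated mice at 1169, 1378 and 1085 CPM against 533, 1027 and 1042 CPM. The gap between 1042 and 1085 CPM is narrow, as is that of the neutrophil genes. The gaps between 9768 and 9950 CPM (oxidative phosphorylation) and between 572 and 615 CPM (cholesterol synthesis) are narrow as well. The cell of treated 3 with monocyte genes held 14 of that mouse's 21 UMIs of Ccr2, a gene of the chemokine and adhesion receptor list.

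Antigen presentation did not separate the groups. Of 7 class II genes tested, 2 lay above and 5 below 0 (median log2 -0.07), and of 8 class I genes 4 lay on either side. H2-Eb1 differed by log2 -0.07 ± 0.42 SE (adjusted p = 0.989 in edgeR) and the class I light chain B2m by -0.02 ± 0.37 SE, at 1067, 738 and 943 against 831, 1103 and 847 CPM. Il1b differed by -0.51 ± 1.19 SE and the neutrophil chemokine gene Cxcl2 by 0.51 ± 1.04 SE, and both varied widely within groups; without vehicle 1 the differences were -0.97 and 0.01. Lyz2 had a log2 difference of 1.81 ± 0.53 SE, at 205, 434 and 49.6 against 546, 863 and 1443 CPM. The difference was 0.78 ± 0.70 SE without the 2 cells that held over 100 endothelial or monocyte UMIs. Of the UMIs that remained, most still came from few cells: 1 cell held 19 of 21 in treated 1, and 2 cells held 48 and 22 of 72 in treated 2.

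Compared with macrophages of the same tumours, type 2 cDC had higher levels of most pan-dendritic genes tested and of some class II genes, such as H2-Oa and Ciita, and lower levels of most lysosome, cytokine and chemokine genes. The macrophages were 6053 cells with at least 5 C1q UMIs, 10 class II UMIs and no Cd209a or Flt3. Cell classes were built from counts of the same cells, so the tests that follow describe how the classes differ and are no independent evidence that they exist, and genes of any rule are left out. In edgeR's quasi-likelihood test with mouse as a term (6 mice), 1278 of 9410 genes passed an adjusted p of 0.05 (13.6%), 269 higher in type 2 cDC (2.86%) and 1009 lower (10.7%). The median gene lay at log2 -0.37 with TMM scaling and at -0.16 with DESeq2-type scaling, which gave 373 higher and 785 lower, and DESeq2 itself called 295 higher and 397 lower. Thinning both classes to 1500 UMIs per cell left 56 higher and 641 lower of 4868. Macrophages were 6053 cells against 53, so that the precision of each value is set by the type 2 cDC.

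H2-Oa (mm10 chr17:34092340-34095234) was at 349, 116, 546, 286, 300 and 199 CPM in type 2 cDC of vehicle 1 to 3 and treated 1 to 3, and at 2.19, 5.0, 3.27, 5.26, 6.38 and 1.37 CPM in macrophages. It was higher in 6 of 6 mice without overlap (log2 5.71 ± 0.35 SE, adjusted p = 3.57e-55 in edgeR). Its partner H2-Ob was at 86.5 ± 65.2 against 2.43 ± 0.804 CPM (SD, n = 6; log2 4.86). Ciita was at 452 ± 169 against 123 ± 52.6 CPM (SD, n = 6; log2 1.46 ± 0.26 SE, adjusted p = 1.32e-06 in edgeR). The class II chain H2-Eb1 itself did not pass, at 8215 ± 2492 against 4681 ± 1027 CPM (log2 0.34 ± 0.19 SE, adjusted p = 0.280 in edgeR), nor did H2-DMa (0.05) and H2-DMb1 (-0.29). The lysosomal proteases Ctss, which trims the invariant chain, and Lgmn were lower in type 2 cDC by log2 -1.44 and -4.68. In all, 4 of 13 class II genes were higher and 2 lower (median log2 0.34), or 6 and 2 with DESeq2-type scaling, and 2 and 2 of 11 after thinning, where the median turned to -0.38.

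Dendritic genes outside the rule were higher in 11 of 19 and lower in none (median log2 1.23). Without the 7 cells with type 1 genes, 9 were higher and 2 lower. The protease gene Dpp4 was at 121 ± 39.2 against 4.43 ± 3.47 CPM (log2 4.67), the receptor gene Kit at 59.2 ± 39.8 against 2.72 ± 2.08 CPM (log2 4.31), and the cofactor gene Cbfa2t3 at 252 ± 129 against 26.2 ± 5.71 CPM (SD, n = 6; log2 2.85). Of 17 genes of the type 2 list, 9 were higher and 5 lower. Clec10a was at 445 ± 223 against 47.2 ± 28.4 CPM (SD, n = 6), higher in 6 of 6 mice (log2 2.82 ± 0.28 SE, adjusted p = 6.9e-21 in edgeR). Ccl17 was higher in 5 of 6 mice (log2 3.34 ± 0.32 SE), the exception being treated 1 with 0 CPM, and Ltb (4.44), Cd7 (7.88), Ffar2 (3.63), Tnip3 (2.51) and Irf4 (1.90) were higher too. Sirpa, Cx3cr1, Klf4, Itgam and Clec12a of that list were higher in macrophages.

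Of the genes chosen by size of change, the aspartic protease gene Napsa was at 1286 ± 369 against 131 ± 48.2 CPM (log2 2.89), the creatine kinase gene Ckb at 903 ± 352 against 83.3 ± 25.2 CPM (log2 2.96) and the calcium-binding protein gene S100a4 at 2894 ± 805 against 416 ± 220 CPM (SD, n = 6 each; log2 2.44). All 3 were higher in 6 of 6 mice. The gut-homing integrin gene Itgb7 was at 182 ± 45.8 against 7.95 ± 3.56 CPM (log2 4.21), in a list of chemokine and adhesion receptors of which 4 were higher and 3 lower of 14 (median log2 -0.33). Traf1, Plac8 and Ccnd3 were higher by log2 2.12 to 2.21.

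In the other direction, all 16 macrophage genes tested were lower (median log2 -5.30), a list related to the C1q genes that defined the class. Apoe, the carrier protein of cellular cholesterol, was at 61.5, 43.4, 0, 0, 36.0 and 146 CPM in type 2 cDC and at 26017, 10619, 9743, 25929, 28466 and 19120 CPM in macrophages (log2 -8.82 ± 0.29 SE, adjusted p = 1.77e-188 in edgeR). C4b, Apoc2, Slc7a2, Fcna and Ms4a8a had no UMI in type 2 cDC and were at least 44.6-fold, 30.6-fold, 19.5-fold, 14.3-fold and 13.8-fold lower, taking 3 UMIs over all type 2 cDC as the floor. Igf1 was at least 9.49-fold lower. All 35 lysosome genes lay below 0 (median log2 -1.54) and 25 of them passed, 23 with DESeq2-type scaling and 20 of 31 after thinning. The protease gene Ctsd was at 78.0 ± 54.8 against 1525 ± 820 CPM (log2 -4.51) and Ctsb at 267 ± 78.2 against 1963 ± 749 CPM (SD, n = 6; log2 -3.22). Of 22 cytokine and chemokine genes 15 were lower and only Ccl17 higher, with Cxcl2 (log2 -2.87), Ccl2 (-2.44), Ccl3 (-2.35) and Tnf (-1.62) among the lower ones. Il1b did not pass (log2 -0.93 ± 0.66 SE, adjusted p = 0.493 in edgeR). Pattern recognition genes were lower in 11 of 19, interferon response genes in 10 of 25 and MAP kinase output genes in 10 of 24, with Ccnd1 the 1 that was higher.

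**Figure D4:**
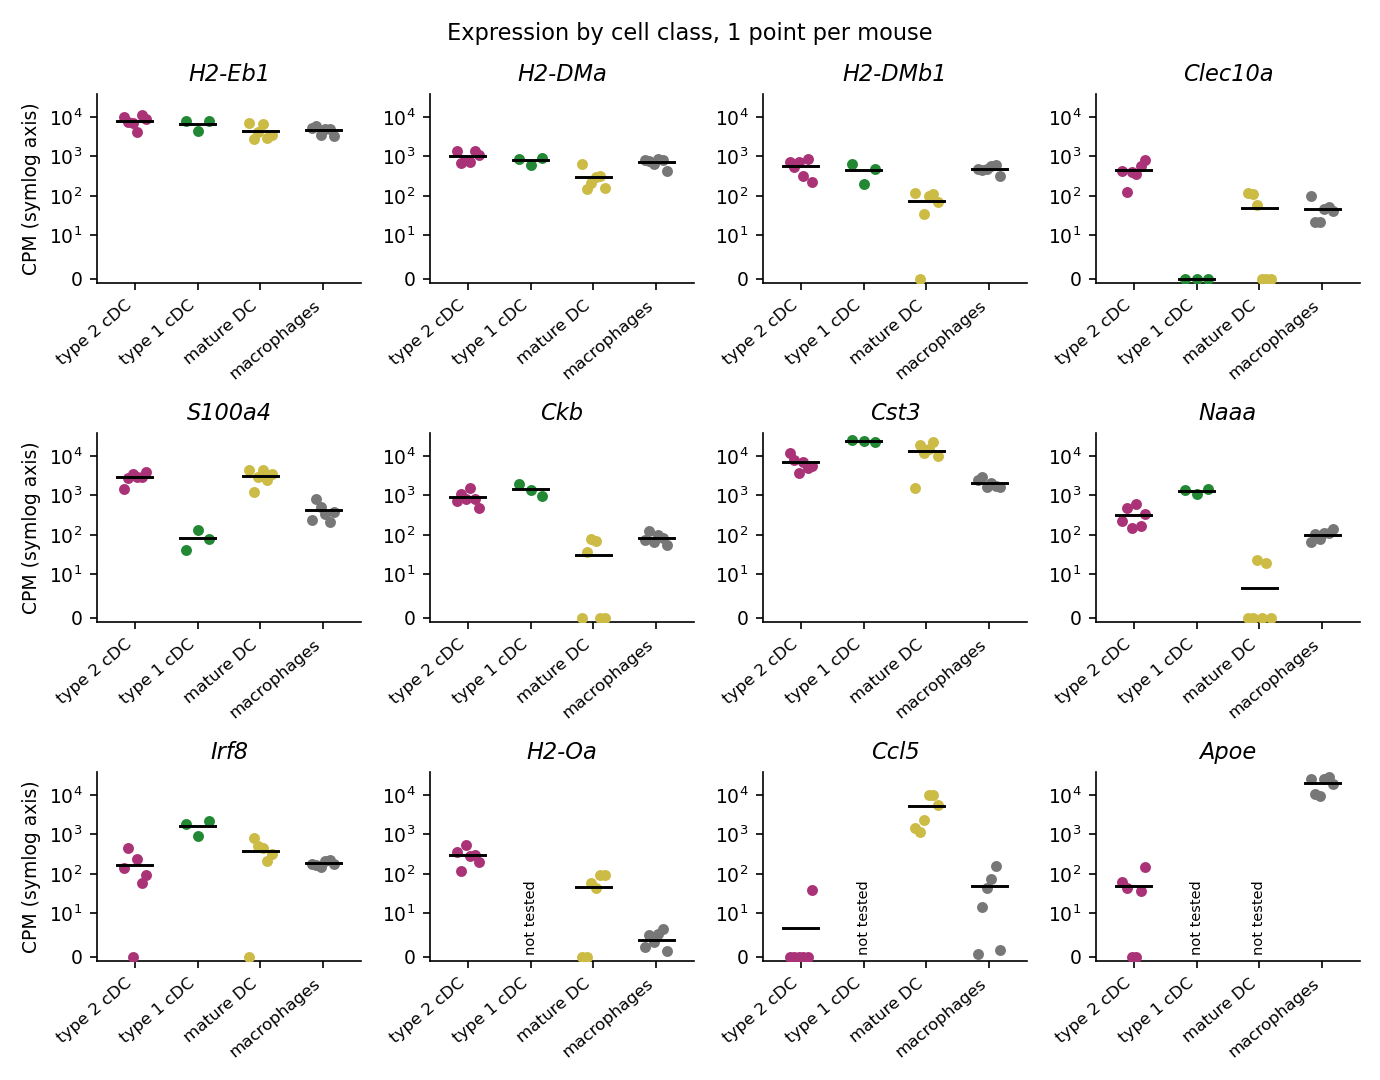
CPM of 12 genes in type 2 cDC, type 1 cDC, mature dendritic cells (stricter class) and macrophages, 1 point per mouse and a line at the mean, on an axis that is linear near 0 and logarithmic above. H2-Oa and Clec10a are high in type 2 cDC, Irf8 and Cst3 in type 1 cDC, Ccl5 in mature dendritic cells and Apoe in macrophages, and classes where a gene was too low to test are marked.

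Type 2 and type 1 cDC were compared in the 3 mice that had at least 3 of both (vehicle 2, vehicle 3 and treated 3; 33 and 14 cells). Of 739 genes, 73 passed edgeR's quasi-likelihood test (9.88%), 44 higher in type 2 cDC (5.95%) and 29 lower (3.92%). Without the cells with type 1 genes 108 passed, and without treated 3 only 17. Of the cells with more monocyte than type 2 UMIs, vehicle 2 held 6, and vehicle 3 and treated 3 held 1 each. The comparison was not run without them, and their part in the values below was not tested. Of 8 type 2 genes tested, 7 were higher and none lower (median log2 3.82), and of 8 type 1 genes 6 were lower (median log2 -2.09), against a median of -0.03 over all genes.

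Clec4n was at 419, 1142 and 331 CPM in type 2 cDC of vehicle 2, vehicle 3 and treated 3, and had no UMI in type 1 cDC, at least 15.5-fold higher with 3 UMIs over the class as the floor. Cd14, the co-receptor for bacterial lipopolysaccharide, and Clec10a also had no UMI there and were at least 13.6-fold and 12.4-fold higher. S100a4 was at 2798, 3424 and 3865 CPM against 40.8, 134 and 77.7 CPM, higher in 3 of 3 mice with no overlap (log2 5.49 ± 0.35 SE, adjusted p = 1.55e-12 in edgeR). Of 5 cytokine genes 3 were higher, Ccl17, Cxcl2 and Il1b. Ccl17 was at 181, 248 and 1707 against 20.4, 0 and 0 CPM, the last from 1 UMI, a ratio of 69.7 with a 95% counting interval of 12.3 to 2770. Cxcl2 likewise had 1 UMI in type 1 cDC (ratio 48.2, interval 8.48 to 1922). Il1b was at 1678, 2829 and 1509 against 509, 806 and 0 CPM (log2 2.36 ± 0.54 SE, adjusted p = 0.0224 in edgeR). Tmem176a (log2 3.93) and Lyz2 (2.47) were higher as well, and Ltb, with 2 UMIs in type 1 cDC, had a ratio of 12.7 (interval 3.36 to 107).

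Irf8 (mm10 chr8:120736358-120756694) was at 456, 0 and 92.6 CPM in type 2 cDC and at 1834, 940 and 2253 CPM in type 1 cDC (log2 -3.08 ± 0.51 SE, adjusted p = 0.004 in edgeR). In vehicle 2, 52 Irf8 UMIs came from the 4 cells with more type 1 genes and 11 from the other 15. Cst3, the protease inhibitor cystatin C, was at 7954, 3772 and 5784 against 26511, 23642 and 22504 CPM, lower in 3 of 3 mice (log2 -2.12 ± 0.20 SE, adjusted p = 5.69e-09 in edgeR). In vehicle 2, 709 of 1100 Cst3 UMIs came from the 4 cells with type 1 genes, and without the cells of that kind the difference was -2.55. Naaa (-1.99), Itgae (-2.18), Wdfy4 (-1.74), a gene needed for cross-presentation, and Id2 (-1.92) were lower too. Without treated 3 the calls of Irf8 (adjusted p = 0.0792 in edgeR), Naaa (0.0536), Id2 (0.147) and Itgae (0.0697) were lost, and Itgae was lost as well in DESeq2 (0.234) and with no filter (0.107). The immunoproteasome genes Psmb9 (-1.79) and Psmb8 (-1.56) were the 2 lower of 10 class I genes. Of 6 class II genes only Ifi30, a thiol reductase of the antigen-processing compartment, was higher (log2 0.98). H2-Eb1 did not pass, at 7723, 7246 and 8986 against 7845, 4567 and 8209 CPM (log2 0.17 ± 0.18 SE, adjusted p = 0.676 in edgeR).

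Mature dendritic cells, which have taken up antigen and switched to migration, were first taken as cells with at least 5 UMIs of Ccr7, Fscn1 and Ccl22 (81 cells). Of these, 21 held over 5 UMIs of fibroblast genes, 14 of them over 100, and 21 had neither Ccr7 nor Ccl22. A stricter class of 56 cells, chosen after this was seen, is therefore used for the values. Neither class set a limit on Xcr1, Clec9a, Cd209a or Flt3, so mature cells with genes of either type could enter. Against the first class, 343 of 1922 genes passed edgeR's test in 6 mice (17.8%), 149 higher in type 2 cDC (7.75%) and 194 lower (10.1%). Against the stricter class, 423 of 1142 passed (37%), 176 higher (15.4%) and 247 lower (21.6%).

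Maturation genes were lower in type 2 cDC for 12 of 12 tested (median log2 -3.59), and for 10 of 12 against the first class. The rule allows type 2 cDC at most 2 UMIs of 3 such genes, so that this list is close to the rule. Ccl5, a T cell chemokine, was at 0 CPM in 5 mice and 39.7 CPM in treated 3, and at 1499, 1163, 2381, 10260, 10192 and 5674 CPM in mature cells of vehicle 1 to 3 and treated 1 to 3 (adjusted p = 2.66e-15 in edgeR). With 3 UMIs in type 2 cDC, the ratio was 804-fold lower, with a counting interval of 275 to 3903. Il12b had no UMI in type 2 cDC, where 3 UMIs would be 7.41 CPM, and was at least 34.3-fold lower, with H2-M2 and Apol7c at least 25.7-fold lower each. Costimulatory and checkpoint genes were lower in 4 of 4, with Cd86 by log2 -1.35, Cd274 by -2.72 and Icam1 by -2.18, and with Cd200 29.3-fold lower (counting interval 9.60 to 146, 3 UMIs in type 2 cDC). The transcription factor gene Relb was at 53.2 ± 34.4 against 484 ± 126 CPM and Cd83, which keeps class II on the surface, at 99.4 ± 57.4 against 598 ± 206 CPM (SD, n = 6).

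The class II and class I groups moved apart. H2-DMb1 was at 738, 542, 744, 312, 851 and 225 CPM in type 2 cDC and at 120, 0, 34.2, 99.5, 112 and 68.1 CPM in mature cells, higher in 6 of 6 mice without overlap (log2 2.75 ± 0.40 SE, adjusted p = 6.92e-06 in edgeR). H2-Oa (log2 2.28), Ciita (1.94) and H2-DMa (1.72) were higher and Cd83 (-2.67) lower, which makes 4 higher and 1 lower of 8 class II genes, while H2-Eb1 did not pass (log2 0.79 ± 0.36 SE, adjusted p = 0.139 in edgeR). Of 13 class I genes 10 were lower, among them B2m at 921 ± 143 against 2922 ± 1140 CPM (SD, n = 6; log2 -1.75 ± 0.24 SE, adjusted p = 1.35e-05 in edgeR), H2-K1 (-1.84), H2-D1 (-1.10) and the peptide transporter gene Tap1 (-1.45). The chaperone genes Calr (1.62) and Pdia3 (1.63) were higher. Against the first class, with its fibroblast-gene cells, 7 class II genes were higher and 1 lower of 10, but none of 11 class I genes passed (B2m log2 -0.61, adjusted p = 0.149 in edgeR), so that the class I difference depends on which mature cells are taken.

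Among single genes higher in type 2 cDC than in mature cells, Ccr2 was at 255 ± 157 against 23.7 ± 52.6 CPM (log2 3.25), Itgb7 at 182 ± 45.8 against 18.6 ± 17.0 CPM (log2 3.03), Naaa at 328 ± 187 against 6.91 ± 10.8 CPM (35.0-fold, counting interval 11.7 to 172, 3 UMIs in mature cells) and Clec10a at 445 ± 223 against 48.2 ± 57.1 CPM (SD, n = 6 each; log2 3.49). Each was higher in 6 of 6 mice. Against the first class, the Clec10a call was lost without vehicle 3 (adjusted p = 0.0891 in edgeR), treated 1 (0.0857) or treated 2 (0.0771). Of 10 genes of the type 2 list 2 were higher and 2 lower, and of 15 pan-dendritic genes 2 were higher and 5 lower. Monocyte genes were higher in 4 of 6 (Plac8, Ccr2, Cd14 and Ms4a4c) and interferon-inducible genes in 3 of 5 (Ifitm3, Ifi27l2a and Ly6e). Il1b did not pass (log2 -0.40 ± 0.64 SE, adjusted p = 0.673 in edgeR).

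Whether type 2 cDC answered treatment differently from macrophages was tested with a term for class by treatment. Of 798 genes, 1 passed in edgeR's quasi-likelihood test (0.125%) and 28 had an unadjusted p under 0.05. That gene was Plac8 (ENSMUSG00000029322, mm10 chr5:100553725-100572245, minus strand), which encodes a small cysteine-rich protein of leukocytes and placenta. In type 2 cDC it was at 472, 629 and 347 CPM in vehicle 1, 2 and 3 and at 260, 372 and 516 CPM in treated 1, 2 and 3. In macrophages it was at 156, 274 and 145 CPM and at 21.2, 26.9 and 27.7 CPM. The groups overlapped in type 2 cDC (log2 -0.40 ± 0.43 SE, adjusted p = 0.971 in edgeR), whereas in macrophages all treated mice were below all vehicle mice (log2 -2.88, adjusted p = 0.0553 in edgeR, where 0 of 11370 genes passed and 911 had an unadjusted p under 0.05). Plac8 belongs to the monocyte list. Its log2 difference in type 2 cDC was -0.67 without the cells that held over 100 endothelial or monocyte UMIs. Without the cells with more type 1 than type 2 UMIs it was -0.53. The class-by-treatment term was not run without either kind of cell. The difference between the responses was log2 2.39 ± 0.36 SE (adjusted p = 0.0153 in edgeR). Its size was kept without any 1 mouse, at 2.15 to 2.61, but the adjusted p passed 0.05 without vehicle 1 (0.0615), vehicle 2 (0.258), vehicle 3 (0.123), treated 2 (0.0613) or treated 3 (0.167) and stayed below it only without treated 1 (0.00557).

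**Figure D5:**
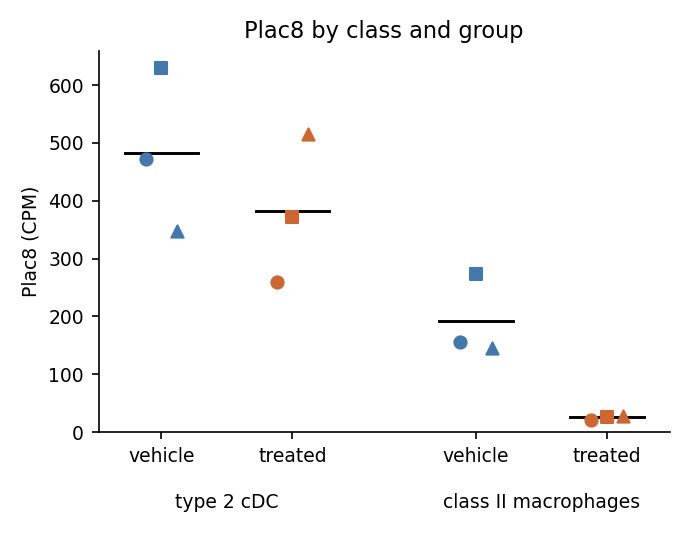
Plac8 CPM in type 2 cDC and in macrophages of each mouse by group, 1 point per mouse with the group mean as a line; the axis is linear and starts at 0. The type 2 cDC groups overlap between 260 and 629 CPM, and treated macrophages lie at 21.2 to 27.7 CPM, all below the vehicle macrophages.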

How the data were processed

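Single-cell RNA of pancreatic tumours of 6 KPC mice was measured, with 1 library per mouse. The full genotype is not reported here. The authors deposited UMI counts per gene and barcode for 32285 features. Barcode and feature names (unit "other") are as the authors deposited them. Cell Ranger 5.0.1 and mm10 are named in the submitters' processing notes; their gene annotation's version is not given in the sources used.

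A barcode was kept from 500 UMIs and 250 genes upward if no more than 20% of its UMIs were mitochondrial. Type 2 cDC were taken by the stated rule. Members and gene lists were chosen with earlier results of these data known. No doublet caller was run; leaving out cells with more than 2 times the median UMIs was an alternative. Cell classes were also set by UMI rules: type 1 cDC by at least 2 UMIs of Xcr1 and Clec9a, mature cells by at least 5 of Ccr7, Fscn1 and Ccl22, macrophages by at least 5 of C1q, each with 10 class II UMIs and without markers of the other lineages.

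Counts were summed per mouse and class, and mice with at least 3 cells entered a main comparison. The planned minimum of 10 left too few mice. Alternatives that left out type 2 cDC used a lower minimum. Treated 1 entered with 2 cells when cells with more type 1 genes were left out, and with 1 after thinning to 2000 UMIs. Tests used the quasi-likelihood F test of edgeR 4.0.16 (robust, with TMM factors and the filterByExpr filter, limma 3.58.1 loaded, R 4.3.3), with Benjamini-Hochberg adjustment over all genes tested, and mouse as a term between classes. DESeq2 1.42.0, DESeq2-type scaling (RLE), no filter, thinning and leaving out each mouse were alternatives. Shares were compared by exact permutation over mice. The labels do not say more of the mice than that each gave 1 library, so p-values measure the spread between these libraries. Intervals cover counting error only. The main edgeR comparisons were tested on simulated data, but the comparison with the stricter mature class and the permutation tests were not. Python 3.11.15, numpy 2.4.6, pandas 2.3.3, scipy 1.17.1 and matplotlib 3.10.9 did the rest. Gene positions are from GENCODE M21 on mm10, and promoters from RefSeq.

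Genes to name were set by rule. For treatment, they were up to 10 each way past an adjusted p of 0.05 with an absolute log2 change of at least 1, no overlap between groups and a mean log2 CPM from 5 upward, filled by the smallest unadjusted p among genes with a mean log2 CPM of at least 6, plus members of the lists. Between classes they were the 10 largest each way with a mean log2 CPM of at least 6, plus the list members described. Predicted, ribosomal, mitochondrial, haemoglobin, sex-linked and antigen receptor genes were not named by rank.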

Additional observations from a re-analysis of the deposited data

Results flagged for a closer look

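Plac8 had a treated-vehicle difference in type 2 cDC that was higher than that in macrophages by 2.39 on the log2 scale, a difference between the responses of 2 cell classes that passed its own test (term for class by treatment, adjusted p = 0.0153 in edgeR). It was the only 1 of 798 genes to do so. In macrophages 3 of 3 treated mice lay below all vehicle mice, whereas the type 2 cDC groups overlapped. Leaving out any of 5 of the 6 mice ended the call, and leaving out treated 1 did not. Plac8 is a gene of the monocyte list, and the term was not run without the cells that carry monocyte or type 1 genes.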

How the results depend on the processing

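The 0 genes called between treated and vehicle type 2 cDC stayed 0 under every alternative run except the replicate block; thinned to 2000 UMIs, only 116 genes in 5 mice could be tested. The replicate numbers are shared by the groups, and the labels give no pairing of mice. Deviations from the group mean correlated at 0.11, -0.01 and 0.07 between same-numbered mice and at -0.13 to 0.12 between the other pairs. With so few pairs and cells, these values cannot decide whether the numbers pair the mice. With the replicate block 2 genes were called, AY036118 and Gm42418, both higher in treated mice and both overlapping ribosomal RNA sequence; Gm42418 was named after its values were seen. At least 10 or 20 type 2 cDC per mouse could not be run, since 1 and 0 mice had that many. Against type 1 cDC, DESeq2 called 33 genes in place of 73, and leaving out 1 mouse gave 17 to 73 (46 without vehicle 2, 17 without treated 3). Against mature cells, no filter gave 671 in place of 343, and leaving out 1 mouse gave 199 to 421 (212 without treated 2, 199 without treated 3). Against macrophages, DESeq2 called 692 and thinning to 1500 UMIs left 697, in place of 1278. Between cells admitted by Cd209a and by Flt3, no filter gave 1 call in place of 0, and leaving out 1 mouse gave 0 to 10. For the class-by-treatment term, DESeq2 called 3 genes and no filter 2 in place of 1, and leaving out 1 mouse gave 0 to 1. The ratio of type 2 to type 1 cells, 0.48 in the treated minus vehicle direction, reversed to -0.62 after thinning, and leaving out 1 mouse gave -0.31 to 1.55. The cause of these changes was not tested. The stricter mature class, the minimum of 3 cells the thinning to 1500 UMIs and the runs without cells that carry type 1, endothelial or monocyte genes were chosen after seeing the data. With 53 cells, 3 of them in treated 1, depth limits what treatment comparisons can show.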
